A study of Homo sapiens with 2 samples.

Results

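RBMS3 is an RNA-binding protein. The sites described here are positions outside every annotated transcript of their strand where deletions, read as its crosslinks, were called at low percentages. They come from CLIP-seq of MDA-MB-231 cells, a breast cancer line of the triple-negative subtype, that carried FLAG-tagged RBMS3. The tagged protein was expressed in addition to what the cells make themselves, the cells were irradiated with ultraviolet light, the lysate was treated with RNase, and RNA held by the protein was recovered through the tag, given a poly(A) tail and captured on oligo(dT) before sequencing. Both biological replicates (2 in all) belong to 1 group, and a control library was not analysed here. The source and cell line labels of replicate 2 read MDA-MB-232, whereas its title names MDA-MB-231, and it was taken as the title has it. The list of sites was called by the authors on both replicates pooled, so the values have no error between replicates.

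A site is a position where sequenced fragments (tags) lack a base, which the method reads as the base that reverse transcriptase skipped at a crosslink. For each site the list gives the tags that cover it and the tags with the deletion, and their ratio is the deletion percentage. Sites were members if they lay off the mitochondrial genome and outside every GENCODE release 44 transcript on the same strand (hg38), and if under 30% of their tags carried the deletion. Of 27706 sites in the list, 1805 were intergenic by this rule and 242 of these were members, which is 13.4% of the intergenic sites and 0.873% of the list. In the whole list 19426 sites were under the limit, and members made up 1.25% of them. Neighbouring members of the same strand, at most 50 nt apart, were joined, which gave 194 clusters next to 187 upstream genes on 21 chromosomes, with 108 clusters on the plus and 86 on the minus strand. Each cluster is represented by its site with the most deletions.

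By way of background, a human mRNA ends where the nascent RNA is cut and a poly(A) tail is added, shortly downstream of a poly(A) signal. AATAAA and ATTAAA, written as DNA, are the canonical signals, and several weaker variants are known. Many genes have alternative ends, and RNA made past an annotated end is intergenic by annotation although it belongs to the gene upstream. The genome also holds many processed pseudogenes, which are DNA copies of mRNAs that were inserted elsewhere, often with the end of the 3′UTR and a trace of the tail. In such a copy the annotated pseudogene may stop before the copied 3′UTR does.

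The following sequences show members past ends of protein-coding genes, chosen because they were among the clusters with the most deletions or, for IGFBP4, MET, TAF13 and LNPK, to show other arrangements after their values were seen. Each is 30 nt of the RNA strand, 5′ to 3′, from hg38. The lone capital is the deleted base, and 6 capitals in a row are the canonical poly(A) signal nearest to it.
PRDX3, chr10:119167713-119167742, minus strand: caaAATAAAcatattttaaaacattTgcat
PLAC8, chr4:83086123-83086152, minus strand: tcctcAATAAAatatcttcttttTgtacat
ZC3HAV1L, chr7:139021504-139021533, minus strand: tctatacattCataAATAAAattcatttat
HLTF, chr3:149030121-149030150, minus strand: aaatcAATAAAaatttcaaatgttTattac
FOSL1, chr11:65890080-65890109, minus strand: cccatgcagaAATAAAttTaaccaaaatac
IGFBP4, chr17:40460782-40460811, plus strand: agagccAttaagctgaaATTAAAcccttgt
MET, chr7:116798356-116798385, plus strand: caATTAAAgtaaagtgatgcaacatcTtgt
TAF13, chr1:109062486-109062515, minus strand: tatgaacaATTAAAcaggttgAtccttgaa
LNPK, chr2:175923863-175923892, minus strand: tgaaaaccttATTAAAtttTatcactccat
In PRDX3, HLTF, MET, TAF13, LNPK, PLAC8 and FOSL1 the signal lay upstream of the deleted base, and in ZC3HAV1L and IGFBP4 it lay downstream.

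Members had far fewer tags than 3′UTR sites under the same limit. The representative sites of the 194 clusters were covered by 123 to 21249 tags (median 667, quartiles 378.75 and 1774), compared with a median of 3112 tags over 7315 clusters in 3′UTRs. They carried 32 to 613 deletions, with a median of 51.5. The members were chosen by the deletion percentage, which ran from 0.487% to 29.9% with a median of 8.04%. Deletions varied less than tags did, so the percentage largely followed the tags in the plot of depth against percentage. Just inside the limit were a site past ENSG00000257545 with 141 of 472 tags (29.9%), one past CCDC90B with 59 of 198 (29.8%) and one past ARL6IP1P3 with 98 of 334 (29.3%). Just outside it were sites past ANKIB1 with 77 of 252 tags (30.6%), ENSG00000258580 with 82 of 265 (30.9%) and ESF1 with 40 of 127 (31.5%). The intergenic sites at or over the limit, 1563 in 1561 clusters, had a median of 16 tags, so depth and deletion percentage cannot be told apart in any comparison with them.

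**Figure D1:**
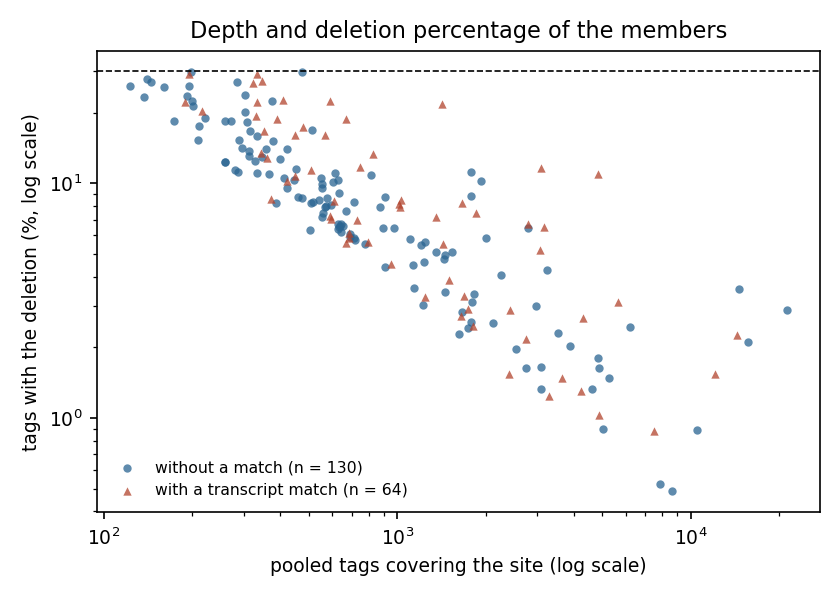
Deletion percentage (y axis, log scale) against pooled tags (x axis, log scale) of the representative site of each of the 194 clusters. Triangles are the 64 clusters whose sequence matched a transcript of another gene and circles the other 130, and the dashed line is the 30% limit that chose the members. Both kinds span the range, and the points run from few tags and high percentages to many tags and low percentages.

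Most clusters held 1 site. There were 168 such clusters, 19 of 2 sites, and 7 with 3 or more. The cluster past ZC3HAV1L, a relative of the zinc-finger antiviral protein, had 9 sites over 58 nt. The cluster past PLAC8, which encodes a small cysteine-rich protein, had 7 sites over 34 nt. Next were the pseudogene ENSG00000185641 with 6 sites over 40 nt, and a cluster past TRPS1, a transcription factor gene, with 4 sites over 56 nt. FOSL1, which encodes a subunit of the AP-1 transcription factor, also had 4 sites, over 44 nt. Clusters of 2 or more sites held 74 of the 242 member sites.

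The first question was how far members lie past the end of the gene upstream. The distance was measured to the nearest transcript end of any GENCODE gene on the same strand. It ran from 1 to 806122 nt, with a median of 964 nt (95% order-statistic interval 647 to 1559 nt) and quartiles of 184.25 and 5105.5 nt. In 36 clusters (18.6%, 95% Wilson interval 13.7 to 24.6%) it was at most 100 nt, and in 14 of these at most 10 nt. In 97 clusters (50%, interval 43.0 to 57.0%) it was at most 1000 nt and in 156 (80.4%) at most 10000 nt. Intervals given for shares cover counting error only. The intergenic clusters at 30% or more lay farther away, with a median of 12450.5 nt (interval 10893 to 14866 nt) and 234 of 1561 clusters (15%, interval 13.3 to 16.8%) within 1000 nt. The intervals of the medians and of these shares did not overlap those of the members, but the difference was not tested and the groups differ in depth as well as in the limit. When only ends of protein-coding genes were counted, 49 of the 194 member clusters (25.3%) lay within 1000 nt and the median distance was 6404 nt.

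**Figure D2:**
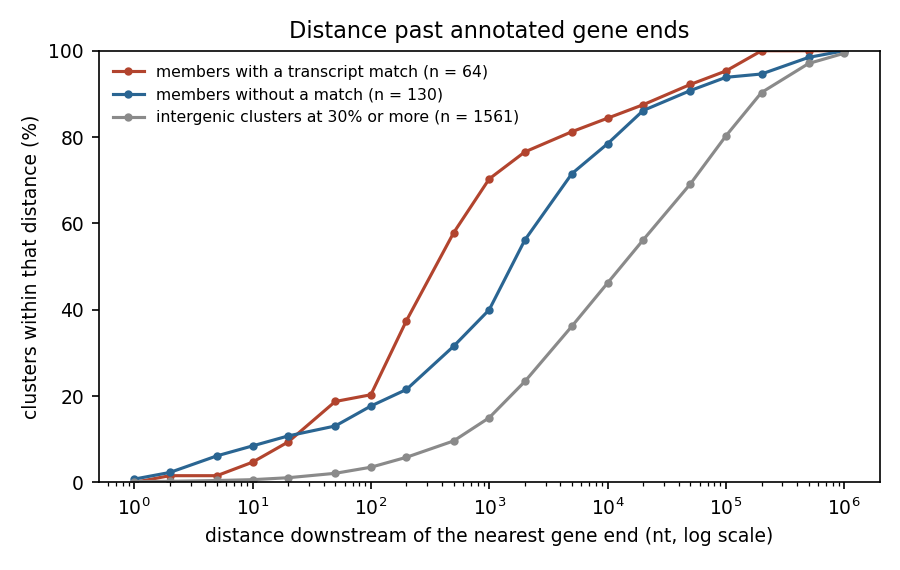
Percentage of clusters (y axis) that lie within a given distance downstream of the nearest annotated gene end on the same strand (x axis, nt, log scale). Points are the distances counted. Within 1000 nt lay 70.3% of the 64 members with a transcript match, 40% of the 130 members without one and 15% of the 1561 intergenic clusters at 30% or more.

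The gene upstream was protein-coding for 113 clusters (58.2%), a processed pseudogene for 51 (26.3%), a lncRNA for 27, an unprocessed pseudogene for 2 and an snRNA for 1. Among the intergenic clusters at 30% or more, 216 of 1561 (13.8%, interval 12.2 to 15.6%) followed a processed pseudogene, compared with an interval of 20.6 to 32.9% for the members. For lncRNAs the shares lay the other way, at 13.9% of the members (interval 9.74 to 19.5%) and 430 of 1561 (27.5%, interval 25.4 to 29.8%). Protein-coding genes were upstream of 50.7% of these clusters (interval 48.3 to 53.2%), compared with an interval of 51.2 to 65.0% for the members. The differences were not tested. Clusters past processed pseudogenes were closest to their gene, at a median of 290 nt (interval 174 to 448 nt), compared with 1382 nt (790 to 2042 nt) past protein-coding genes and 26422 nt (1558 to 69444 nt) past lncRNAs. By symbol, 11 clusters (5.67%) followed a pseudogene named for an RPL or RPS ribosomal protein, compared with 27 of the 1561 intergenic clusters at 30% or more (1.73%). In 3 of the 11 the symbol did not describe the site. RPL35AP31 lay 274195 nt away without a match, RPL5P12 lay 19202 nt away from a site that matched CAP1, and RPL22P23 lay 6581 nt away from a site that matched DDX21. The other 8 sites were within 54 nt of the pseudogene. The count by symbol leaves out pseudogenes that GENCODE lists only by identifier. Among these were ENSG00000185641, ENSG00000213315 and ENSG00000180211, which RefSeq names RPS25P6, RPS18P2 and RPL23P6. Other families stood upstream of 0 to 3 clusters each. COX6A1P2 and COX7A2P2, pseudogenes of cytochrome c oxidase subunits, were 2 clusters (1.03%, and 0.384% of the intergenic clusters at 30% or more). The translation factor pseudogenes EEF1A1P15 and EIF4A1P12 were also 2 (1.03% and 0.769%), and genes named TMEM were 3 (1.55% and 0.577%). EEF1A1P15 lay 2519 nt and EIF4A1P12 26441 nt away from sites without a match, and TMEM213 lay 198808 nt away. MRPL3, RAB10 and SLC28A3 were each the lone member of their family (0.515% each, and 0.577%, 0.320% and 1.09%). SLC28A3 lay 278546 nt from its site. No cluster followed a proteasome subunit, hnRNP or SRSF, histone or ZNF gene, whose shares among the other intergenic clusters were 0.384%, 0.705%, 0.192% and 1.79%. None of these differences was tested.

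Because copies and their source genes share sequence, the 101 nt around each representative site were compared with all GENCODE transcripts. A match was an alignment to another gene of at least 90% identity over at least 50 nt that includes the deleted base. Only the best-scoring alignment to another gene was kept for each site. This rule was set after the sites had been seen. It was met by 64 clusters (33.0%, interval 26.8 to 39.9%), compared with 165 of 1561 intergenic clusters at 30% or more (10.6%) and 185 of 7315 clusters in 3′UTRs (2.53%). The median identity was 96.0% and the median aligned length 71.5 nt. A match was present for 45 of the 51 clusters past processed pseudogenes, for 9 of 27 past lncRNAs and for 7 of 113 past protein-coding genes. The matched gene was protein-coding in 59 cases, and its symbol was of the RPL, RPS or RPLP ribosomal families in 12, the pseudogene RPL12P38 among them. The matched base lay a median of 21 nt before the end of its own gene, and within 100 nt of it in 51 cases.

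Sequences of copies and of the transcript they matched are shown here because the tags could come from either locus. Each is 30 nt, 5′ to 3′. In the copy (hg38) the capital is the deleted base. In the matched GENCODE transcript capitals mark bases that differ from the copy.
ENSG00000185641, chr5:116051872-116051901, minus strand: aaccagctgtacattTggaaaaataaaact
RPS25 transcript: aaccagctgtacatttggaaaaataaaact
ADH5P4, chr6:65836681-65836710, minus strand: tattaaggaatatttTaacataataaaagt
ADH5 transcript: tattaaggaatattttaacataataaaagt
COX7A2P2, chr4:96903154-96903183, plus strand: gtagtaactgccgccAataaagcagtcttt
COX7A2 transcript: gtagtaactgccAccaataaagcagtcttt
RPL15P3, chr6:12514722-12514751, plus strand: taatataagtaaagtCtgtaaaattcatac
RPL15 transcript: taatataagtaaagtTtgtaaaattcatac
FTH1P20, chr2:180872699-180872728, minus strand: tcaaataaagaaattTggtacccaaaaaaa
FTH1P10 transcript: tcaCataaagaaattGggtaccAaaaaaaa
The first pair did not differ in these 30 nt, nor did the ADH5 pair. COX7A2 differed away from the deleted base, whereas RPL15 and FTH1P10 differed at the deleted base itself. FTH1P10 is itself a pseudogene, so this pair does not show the FTH1 transcript.

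The most covered copy was ENSG00000185641, a processed pseudogene that RefSeq names RPS25P6. Its site lay 31 nt past the annotated end and had 326 deletions in 14388 tags (2.27%), and the sequence matched RPS25, a protein of the small ribosomal subunit, at 100% identity. It was the only match that ran over an exon junction of the matched transcript. RPS2P35 had the most deletions of any copy, 530 in 4841 tags (10.9%, Wilson interval 10.1 to 11.9%), at 6 nt past its end, and matched RPS2 at 96.5%. RPL23AP2, a copy of RPL23A, had 186 deletions in 12084 tags (1.54%) at 44 nt. A site past ENSG00000238084, named SDHDP7 by RefSeq, had 205 deletions in 3157 tags (6.49%) and matched SDHD, which encodes a subunit of respiratory complex II, at 95%. HMGB1P23, a copy of the chromatin protein gene HMGB1, had 307 in 1416 tags (21.7%) at 692 nt and 90.7% identity.

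Not every match lay past a pseudogene. In all, 17 of the 64 followed an end of another kind. The site 54082 nt past the lncRNA ENSG00000286432 had 357 deletions in 3082 tags (11.6%) and matched NCL, the gene of nucleolin, at 93.8%. The site 164767 nt past the lncRNA ENSG00000261402 had 79 in 1433 tags (5.51%) and matched YWHAB, a 14-3-3 protein gene, at 100%. The site past the snRNA gene RNU6-573P had 50 in 4876 tags (1.03%) and matched ARF1, a small GTPase of vesicle traffic, at 96.7%. It lay 52474 nt past that gene.

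Only the best-scoring gene of each match was searched for listed sites, and it was not always the gene that a pseudogene is named for. PPIAP65 matched PPIAL4A, NPM1P14 matched CLEC2D and FTH1P20 matched FTH1P10. Listed sites in other genes of similar sequence were not counted. The list held a site within 10 nt of the matched base in the matched gene for 24 of the 64 matches. Where more than 1 lay that near, the site with the most deletions was taken. In 1 of the 24 it fell on exactly the matched base. That site was under 30% in all 24, had more tags than the intergenic one in 21 and a higher deletion percentage in 6. Its tags ran from 337 to 56917 with a median of 18810. NCL had 6868 tags at its own site with deletions in 0.597%, and SDHD had 20875 with 2.17%. At RPL23, the listed site had 19633 tags (0.188%), compared with 951 (4.52%) at the site past ENSG00000180211. The 3 intergenic sites with more tags than the listed site of the matched gene were those of PSPHP1 (5631 against 1739 in PSPH), HSPA8P8 (3297 against 631 in HSPA8) and RPL17P15 (390 against 337 in RPL17). For 17 of the 64 matches the list held no 3′UTR site of the matched gene. Among these genes were LINC01641, ENSG00000286863, ENSG00000257272, RPL12P38 and FTH1P10, which are lncRNAs or pseudogenes and have no annotated 3′UTR. How the aligner treated tags that fit more than 1 place is not given in the sources used here, so whether a tag came from the intergenic site or from the matched gene could not be told apart.

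**Figure D3:**
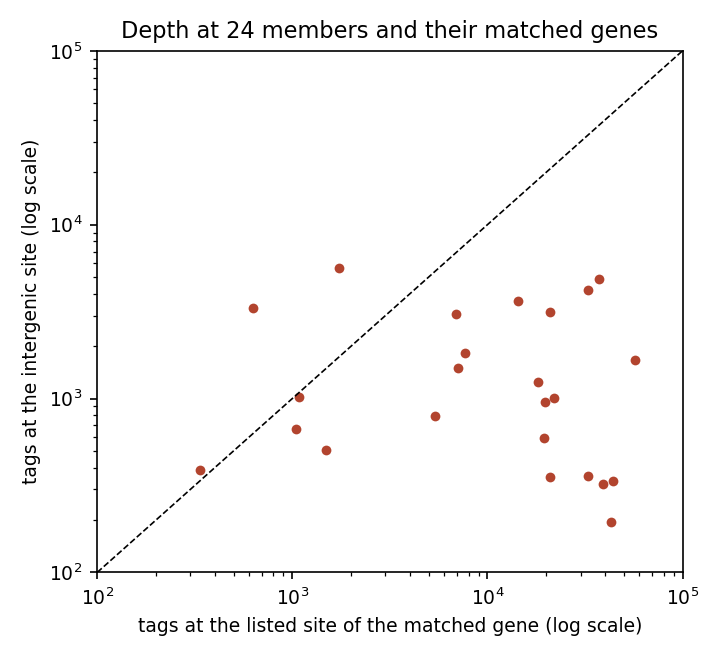
Tags at the intergenic site (y axis, log scale) against tags at the listed site within 10 nt of the matched base in the matched gene (x axis, log scale) for the 24 matches with such a site. The dashed line marks equal tags, and 21 of the 24 points lie below it. The listed site was at exactly the matched base in 1 of the 24.

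At the deleted base itself, site and matched transcript differed more often than around it. They differed, or the transcript lacked the base, in 9 of 64 matches (14.1%, interval 7.58 to 24.6%), compared with 18 of 623 aligned bases at 1 to 5 nt (2.89%, interval 1.84 to 4.52%), 26 of 1141 at 6 to 15 nt (2.28%) and 41 of 974 at 16 to 25 nt (4.21%). The 9 sites lay past DNAJA1P3, ARL6IP1P3, RPL15P3, SNRPGP4, CLIC4P3, RPL22P23, FTH1P20, RPL5P12 and ADORA2B. Their deletion percentages ran from 2.73% to 29.3% with a median of 13.3%, and those of the other 55 from 0.882% to 27.2% with a median of 7.28%. At RPL22P23, which matched DDX21, the transcript had no base opposite the deletion. At FTH1P20 the comparison was with the pseudogene FTH1P10 and not with FTH1. Neither the shares nor the percentages were tested against each other.

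A run of 8 or more A within 100 nt downstream was present at 28 of the 64 matched clusters (43.8%, interval 32.3 to 55.9%) and at 9 of the other 130 (6.92%, interval 3.68 to 12.6%). Among the matched clusters, it was present at 24 of 47 past pseudogenes (51.1%, interval 37.2 to 64.7%) and at 4 of 17 past other ends (23.5%, interval 9.56 to 47.3%). Over all 194 member clusters the share was 19.1% (interval 14.2 to 25.2%). In the intergenic clusters at 30% or more it was 15.1% (interval 13.4 to 17.0%). In 3′UTR clusters under the limit the share was 7.29% and in the whole list 8.90%. Oligo(dT) capture can hold RNA that contains such a run, and its part in these sites was not tested.

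The 106 clusters past protein-coding ends without a match were the largest remaining group. They lay a median of 1428.5 nt past the end (interval 790 to 2042 nt), and 45 of them (42.5%) were within 1000 nt. PRDX3, the gene of a mitochondrial peroxidase, had the most deletions of all members. Its site, at chr10:119167717 and 3 nt past the end, had 613 deletions in 21249 tags (2.88%, Wilson interval 2.67 to 3.12%). HLTF, a DNA translocase gene, had 200 in 1786 tags (11.2%) at 1 nt. PIGY, which encodes a subunit of an enzyme of GPI anchor synthesis, had 179 in 2781 tags (6.44%) at 7 nt, and LNPK, a protein of endoplasmic reticulum junctions, had 138 in 3237 tags (4.26%) at 9 nt.

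Other members of this group lay well past the end. PLAC8 had 514 deletions in 14557 tags (3.53%) at 3919 nt. ZC3HAV1L had 328 in 15622 tags (2.10%) at 4183 nt, FOSL1 198 in 1934 tags (10.2%) at 1958 nt and IGFBP4, which encodes a binding protein of insulin-like growth factors, 151 in 6207 tags (2.43%) at 3063 nt. MRPL3, a mitochondrial ribosomal protein gene, had 157 in 1784 tags (8.80%) at 442 nt. In RefSeq (GRCh38.p14), whose table has no strand, the span of the upstream gene itself reached over 7 of the 106 clusters, those past HLTF, ZC3HAV1L, TXNDC9, CD96, CLTB, ZMYM1 and CD63. It reached over 33 of the 64 matched clusters as well.

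ADORA2B, the gene of an adenosine receptor, was the only gene upstream of 3 clusters. They lay 45, 695 and 15707 nt past its end, at chr17:15975791, chr17:15976441 and chr17:15991453. The middle cluster was the deepest, with 93 deletions in 10508 tags (0.885%). The near one had 45 in 1648 tags (2.73%) and matched TUBGCP4 at 92.3%, with another base at the deletion. The far one had 65 in 627 tags (10.4%). Of these, the near window held ATTAAA, the middle one AATAAA and the far one the variant TATAAA. SUV39H2, NRP1, ENSG00000289357, TRPS1 and PAPPA-AS2 were upstream of 2 clusters each.

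Tags past an end were compared with tags at the best-covered 3′UTR site of the same gene under 30%. Of 91 unmatched clusters within 10000 nt of a protein-coding end, 71 had such a site. Tags past the end were a median of 0.126 times those at the 3′UTR site (interval 0.0740 to 0.206). For 19 clusters within 100 nt of the end the median ratio was 0.236 (0.138 to 0.495), and for 52 at greater distance it was 0.0904 (0.0463 to 0.138), intervals that nearly touch. Of the 106 unmatched clusters past protein-coding ends, 11 lay within 10 nt of the end, and their tags may also cover the last bases of the 3′UTR. PRDX3 had 59016 tags at its 3′UTR site, a ratio of 0.360, and MET had 19442, a ratio of 0.236. The smallest ratio was that of CCNA2, the gene of cyclin A2, with 123 tags past the end against 31558 (0.00390). In 4 genes the site past the end had more tags. They were GTPBP6 (1736 against 323), TAF5L (3080 against 1232), ZMYM1 (2745 against 2264) and PLAC8 (14557 against 13101). The span of ZMYM1 in RefSeq held its site.

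**Figure D4:**
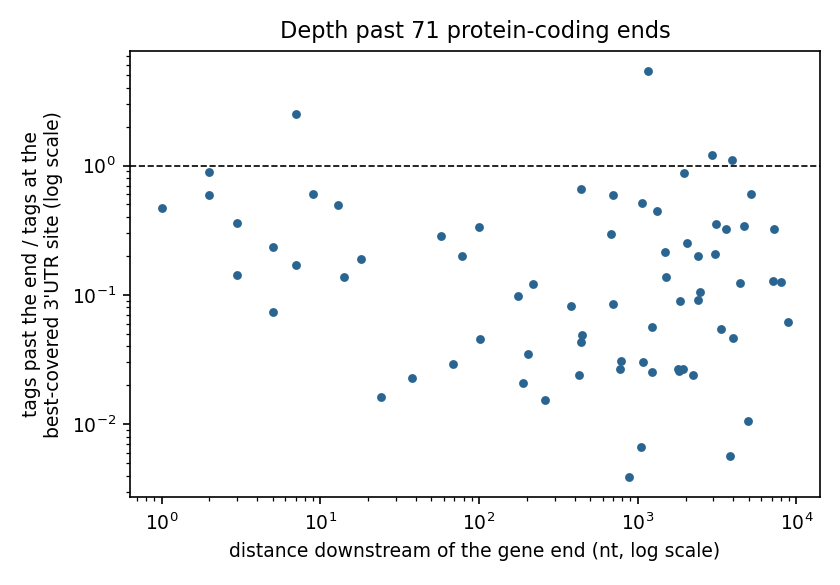
Tags past the end divided by tags at the best-covered 3′UTR site of the same gene under 30% (y axis, log scale) against distance downstream of the end (x axis, nt, log scale) for 71 unmatched clusters past protein-coding ends. The dashed line marks equal tags, and 4 points lie above it.

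Several genes of cell surface receptors and adhesion, chosen after their values were seen, stood upstream of members. MET, the receptor of hepatocyte growth factor, had a site at 5 nt with 61 deletions in 4593 tags (1.33%). EGFR, the receptor of epidermal growth factor, had one at 69 nt with 64 in 1108 tags (5.78%), against 37808 tags at its best-covered 3′UTR site. ITGB1, the integrin beta 1 gene, had 81 in 3517 tags (2.30%) at 3 nt, and PLAUR, the urokinase receptor gene, had 78 in 5259 tags (1.48%) at 220 nt. NRP1, which encodes the coreceptor neuropilin 1, had clusters at 262 and 1226 nt with 691 and 1135 tags. All 5 had listed 3′UTR sites with more tags than the members. Genes of the cell cycle, chosen in the same way, included CKS1B (1444 tags at 1883 nt), MELK (1833 tags at 4430 nt), KIF20A (895 tags at 427 nt), BUB1 (505 tags at 2042 nt) and CDK1 (374 tags at 11536 nt). No list of such genes was compared with the other upstream genes.

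The clusters farthest from an upstream end were few. The site with 40 deletions in 366 tags lay 806122 nt past OPN5, an opsin gene, and held no poly(A) signal. A site 637740 nt past LINC00333 had 41 in 329 tags (12.5%) and an AATAAA at 9 nt upstream of the deletion. A site 353886 nt past ENSG00000225087 had 92 in 2262 tags (4.07%), lay 122 nt before the start of NEGR1 and was followed by a run of 33 A. TRPS1 had 2 clusters at 290191 and 295617 nt with 1449 and 2119 tags. In 4 of the 194 clusters (2.06%) the start of the next gene on the strand was within 1000 nt. The share was 2.88% in the intergenic clusters at 30% or more.

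Members could also lie opposite a gene on the other strand. In 70 clusters (36.1%, interval 29.7 to 43.1%) the deleted base was antisense to an annotated transcript, compared with 603 of 1561 intergenic clusters at 30% or more (38.6%) and 1347 of 7315 3′UTR clusters (18.4%). Over an intron alone lay 58 of the 70, and 12 (6.19%) lay over an exon, 10 of these (5.15%) over a 3′UTR. These shares were near those elsewhere in the list, where 5.43% of all sites and 6.34% of intergenic clusters at 30% or more lay opposite an exon, and 3.31% of all sites, 3.97% of those clusters and 4.29% of 3′UTR clusters under 30% lay opposite a 3′UTR. Counting only transcripts of protein-coding genes, 56 clusters (28.9%) were antisense. Of the 70 clusters, 29 had a transcript match, and of the 41 without one 33 followed a protein-coding gene. The 5 antisense clusters with the most deletions were those past RPS2P35 (opposite INVS), ENSG00000286432 (opposite ENSG00000250453), ENSG00000185641 (opposite ARL14EPL), HMGB1P23 (opposite KIF13B) and ENSG00000238084 (opposite RHCE). All 5 matched a transcript of another gene.

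The 10 clusters opposite a 3′UTR followed protein-coding genes without a match, in places where neighbouring genes point towards each other. At 1 nt past HLTF, 200 of 1786 tags had the deletion opposite the 3′UTR of GYG1, which encodes glycogenin. KIF20A, a mitotic kinesin gene, faced CDC23 (58 of 895 tags), SGO1, a cohesin protector gene, faced KAT2B (57 of 376) and GUF1 faced GNPDA2 (48 of 596). The remaining pairs were RNF181 and TMEM150A, CD63 and ENSG00000258311, ARMC10 and NAPEPLD, RAD52 and WNK1, SCRN3 and GPR155, and CCNA2 and EXOSC9. Tags at these sites ran from 123 for CCNA2 to 1786 for HLTF. The list assigns a strand to each site, and how the strand was determined for tags in such overlaps is not given in the sources used here.

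Poly(A) signals were sought on the strand of the site in windows of 51 nt, 25 on each side of the deleted base. A canonical signal, AATAAA or ATTAAA, was present at 140 of 194 clusters (72.2%, interval 65.5 to 78.0%). The same windows held one at 75.6% of 3′UTR clusters under 30% (interval 74.6 to 76.5%), at 43.8% of intergenic clusters at 30% or more (interval 41.3 to 46.2%) and at 58.4% of all sites in the list. AATAAA was present at 111 member clusters (57.2%) and at 46.4% of all sites. ATTAAA without AATAAA was present at 29 (14.9%) and at 12% of all sites. Another 25 clusters (12.9%) held only a variant signal, compared with 15.1% of all sites. The remaining 29 clusters (14.9%) held none of the 11 hexamers, and neither did 26.6% of all sites. Of the 9 variants, with or without a canonical signal, AAAAAG was in 22 member windows (11.3%, and 6.10% of all sites), AATATA in 16 (8.25% and 7.49%), TATAAA in 12 (6.19% and 7.99%) and CATAAA in 11 (5.67% and 3.09%). The others were rarer, with AGTAAA in 10 (5.15% and 3.57%), ACTAAA in 8 (4.12% and 2.32%), AATACA in 7 (3.61% and 3.60%), GATAAA in 5 (2.58% and 2.52%) and AATAGA in 3 (1.55% and 2.23%).

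Matched and unmatched clusters held a canonical signal at similar shares, 71.9% (interval 59.9 to 81.4%) and 72.3% (64.1 to 79.3%). The make-up of the signals was not the same. AATAAA was present at 45 of 64 matched clusters (70.3%, interval 58.2 to 80.1%) and at 66 of 130 unmatched ones (50.8%, interval 42.3 to 59.2%). ATTAAA alone was present at 1 of 64 (1.56%, interval 0.276 to 8.33%) and at 28 of 130 (21.5%, interval 15.3 to 29.4%). The 3′UTR share of ATTAAA alone was 15.7%. These differences were noticed in the data and were not tested. The clusters with the most deletions but no signal were those past ENSG00000286432, HMGB1P23, MRPL3, SUMO2P3 (133 deletions in 591 tags) and DNAJA1P3 (110 in 827 tags), of which all but MRPL3 had a transcript match.

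The first canonical signal began a median of 8 nt upstream of the deleted base in the members (offset −8, interval −9 to −2) and 1 nt upstream in the 3′UTR clusters (offset −1, interval −2 to −1). In the intergenic clusters at 30% or more the median offset was −6 (interval −7 to −3). In the members the signal lay wholly upstream of the deletion in 78 of the 140 clusters and wholly downstream in 50. It held the deleted base in 12. The most common offsets of its first base were −10 to −6 nt, in 30 clusters (21.4%), and −15 to −11 nt, in 24 (17.1%). At −25 to −21 nt began 13 of the signals (9.29%), PRDX3 and MET among them, compared with 1.85% of those in 3′UTR clusters and 4.54% of those in intergenic clusters at 30% or more. These shares were not tested against each other.

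The AUA motif, which the study connects with RBMS3, was searched on the same strand as any base but C, A or T, then ATA, then A or T, then A. An AATAAA preceded by A, G or T fits it too, so it overlaps the poly(A) signal. It was present at 104 clusters (53.6%, interval 46.6 to 60.5%), compared with 57.6% of 3′UTR clusters under 30%, 37.7% of intergenic clusters at 30% or more and 46.8% of all sites. The share was 64.1% (51.8 to 74.7%) in matched and 48.5% (40.0 to 57.0%) in unmatched clusters.

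The deleted base was T (U in the RNA) in 134 clusters (69.1%, interval 62.3 to 75.2%), A in 33, C in 18 and G in 9. T was deleted in 77.3% of 3′UTR clusters under 30% (interval 76.3 to 78.2%) and in 50.4% of intergenic clusters at 30% or more (interval 47.9 to 52.8%). In 149 member clusters the base next to the deleted one was the same base, 117 of them T, so the exact position of the deletion in such a run cannot be resolved. The share of T was 68.8% in matched and 69.2% in unmatched clusters.

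**Figure D5:**
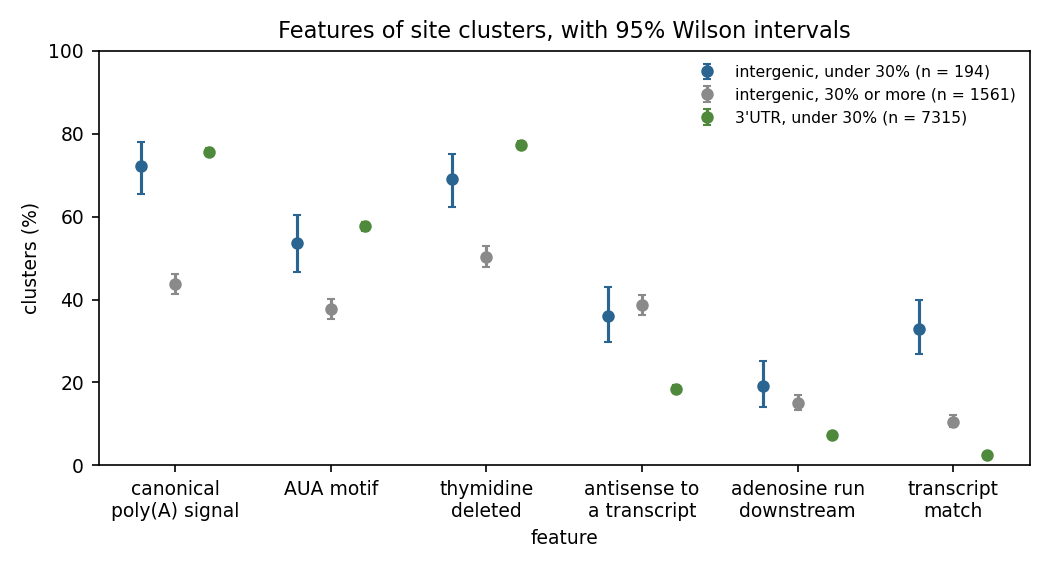
Percentage of clusters (y axis) with each feature for the members (194 clusters), intergenic clusters at 30% or more (1561) and 3′UTR clusters under 30% (7315); bars are 95% Wilson intervals, which cover counting error only. The adenosine run is 8 or more A within 100 nt downstream. Members sit near the 3′UTR clusters for the canonical signal (72.2% and 75.6%) and the AUA motif (53.6% and 57.6%), near the other intergenic clusters for antisense position (36.1% and 38.6%), and above both for a transcript match (33.0%).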

How the data were processed

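CLIP-seq of FLAG-tagged RBMS3 was analysed from 1 list of sites. The authors appended molecular identifiers, aligned reads to hg38 and called deletion sites with the CLIP Tool Kit on both replicates pooled, with filters of 10% false discovery rate and a fold of 10, whose definition is not given in the sources used here. Per site, the deposited file holds raw counts of tags and of tags with the deletion. Total library depth was not analysed here, so depth is given per site. Every interval is 21 nt, and its centre was taken as the deleted base.

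Sites were placed on GENCODE release 44 by strand and joined into clusters within 50 nt. Transcript matches came from BLAST 2.17.0 (word size 11, e-value 1e-10, strand of the site). Shares have 95% Wilson intervals and medians 95% order-statistic intervals, made with Python 3.11.15, numpy 2.4.6, scipy 1.17.1 and matplotlib 3.10.9. No test between groups was run, since the list pools the replicates. The functions for the signal search, the clusters and the distances to ends were tested on simulated data. Those for transcript matches and antisense position were not.

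The members and lists were chosen with earlier results of these data known. Named are the 10 clusters with the most deletions, genes upstream of 3 or more clusters, the 5 farthest clusters, the 5 antisense clusters and the 5 without a signal that had the most deletions, and 3 sites on each side of the limit. Genes named outside this rule were chosen after their values were seen. Alternatives were other limits on the percentage and on deletions, the whole interval outside transcripts, single sites, closer clusters, protein-coding annotation only, and other windows and signals.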

Additional observations from a re-analysis of the deposited data

How the results depend on the processing

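Of 50 alternative values, 37 stayed within the interval of the reported value (counts within 1.5 times). A filter of at least 20 deletions removed no member and is not counted. With a limit under 10%, 79.7% of clusters had a canonical signal. With a limit under 50%, 41.2% lay within 1000 nt of an end and the median distance was 1809.5 nt. With at least 50 deletions there were 141 member sites, and 78.4% of clusters had a canonical signal. Counting ends of protein-coding genes only gave 25.3% within 1000 nt and a median of 6404 nt, and their transcripts only gave 28.9% antisense. The canonical signal share was 33.0% in windows of 10 nt on each side, 57.2% for AATAAA alone and 85.1% with variants added. Chosen after seeing the data, leaving out the sites with a transcript match left 167 sites in 132 clusters, 40.9% of them within 1000 nt, and a match identity of at least 95% gave 21.6% matched. The other settings (every member site, clusters within 10 nt, the whole interval outside transcripts, a window of 50 nt on each side and a match identity of at least 80%) moved no value outside its interval.

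No paired analysis was possible because the list pools both replicates. A site may therefore rest on 1 replicate. The fewest deletions of a member were 32. The limit left out the intergenic clusters at 30% or more, which had a median of 16 tags, 234 of them within 1000 nt of an end.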
